A study of Mus musculus with 62 samples.

Results

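Class 4 and class 3 are 2 of the populations of primary monocytes in a bulk RNA sequencing study of mouse monocytes, and here they were set against each other directly. The comparison took the 2 libraries titled class 4 and the 2 titled class 3, which makes 4 of the 62 libraries of the study. Of the others, 24 came from progenitors and 24 from the monocytic cells of cultured ER-Hoxb8 clones, and 2 each came from classical, intermediate, nonclassical, class 1 and class 2 primary monocytes. All primary cells had been sorted by flow cytometry from mouse bone marrow, and total RNA was extracted from them. The labels give class 4 and class 3 the same cell type, primary monocytes, and no genotype, strain, age, treatment or time for either. They define no class and name no sorting gate, and the origin of the replicates, from separate animals or pools, is not stated. The p-values here therefore measure only the spread between these samples, which may be technical. The deposited table holds raw read counts per gene. Totals were 28386749 and 27042005 counts in class 4, against 27719896 and 30179995 counts in class 3, with 15182 and 14627 genes detected in class 4, against 16720 and 16456 in class 3. Levels below are in CPM, the usual count of a gene relative to the scaled library total, given for replicate 1 and then replicate 2. CPM is not corrected for gene length, so levels are compared between libraries and not between genes.

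Monocytes are made in the bone marrow from dividing granulocyte-monocyte progenitors under the growth factor receptor Csf1r. Classical monocytes carry Ly6C and leave the marrow through the chemokine receptor Ccr2, and nonclassical monocytes depend on the nuclear receptor Nr4a1 and carry high Cx3cr1. The marrow around them holds B cell precursors, erythroblasts, neutrophils, eosinophils and resident macrophages, each with its own defining transcripts. In bulk RNA, fewer cells of a type and less RNA per cell cannot be told apart, and this holds for every difference below.

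Class 4 differed from class 3 in many genes in both directions, and the larger changes were increases. Of 13686 genes tested, 1774 were higher in class 4 (13% of those tested) and 2143 were lower (15.7%), which together is 28.6% of the genes (edgeR quasi-likelihood test on the 8 libraries of classes 1 to 4, Benjamini-Hochberg adjusted p under 0.05). The median log2 fold change of all genes tested was 0.00279. Each list count below is to be read beside these shares of 13% higher and 15.7% lower. Among the genes higher in class 4 the median change was 1.84 on the log2 scale, and 622 rose at least 8-fold. Among those lower in class 4 the median size was 1.14, and 226 fell at least 8-fold. The class 4 libraries were the less alike pair: of 8507 expressed genes, 708 (8.32%) differed over 2-fold between the class 4 replicates, against 127 (1.49%) between the class 3 replicates. The number of calls came to 2017 without class 3 replicate 1, to 1798 without class 3 replicate 2 and to 1993 with all 14 primary libraries in the fit, and in each of these fits the genes also called in the 8-library fit had the same direction.

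**Figure D1:**
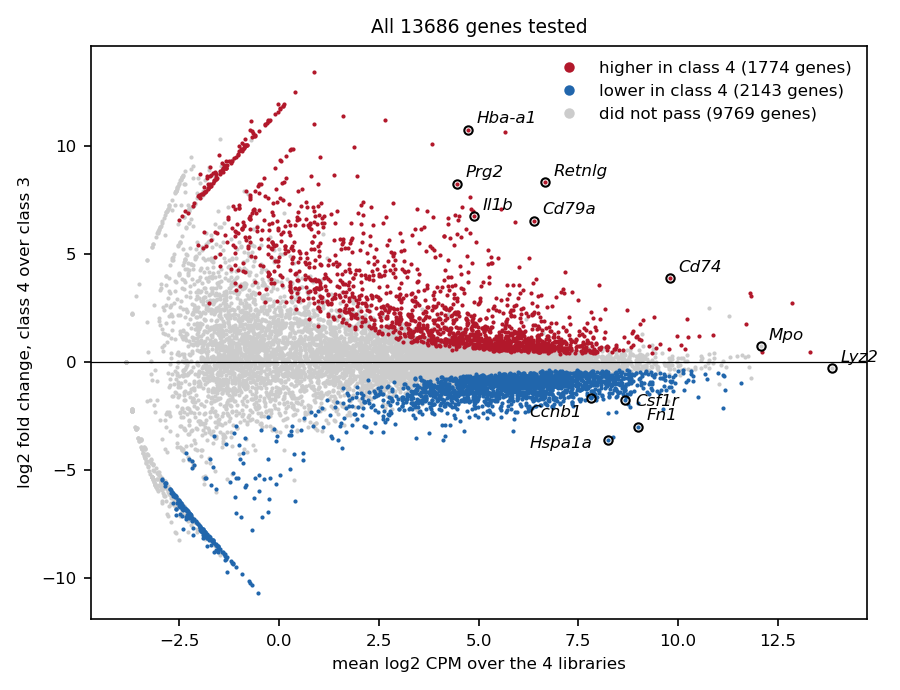
Each point is a gene, with its mean log2 CPM over the 4 libraries on the x axis and the log2 fold change of class 4 over class 3 on the y axis. Red genes (1774) were higher in class 4 and blue genes (2143) lower, and the lines of points at the upper and lower left are genes with no or few counts in one class.

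The monocyte label was examined first, with 8 defining markers. All 8 were detected in all 4 libraries. The 4 that mark growth factor response, homing and Ly6C fell in class 4, none rose, and 4 did not pass. Csf1r, the receptor for the monocyte growth factors M-CSF and IL-34, had 236 and 209 CPM in class 4, against 759 and 742 CPM in class 3. Both class 4 values were well below either class 3 value (log2 fold change -1.75 ± 0.156, adjusted p = 0.000396). Ly6c2, which encodes the Ly6C antigen and has a near-identical neighbour with which reads may be shared, had 823 and 859 CPM in class 4, against 2316 and 2785 CPM in class 3 (log2 fold change -1.60 ± 0.132, adjusted p = 0.000272). Ccr2 had 353 and 381 CPM in class 4, against 1058 and 897 CPM in class 3 (log2 fold change -1.41 ± 0.14, adjusted p = 0.00055). The groups did not overlap for any of these 3 genes, as was the case for 8933 of the 13686 genes tested (65.3%). Cx3cr1, the fractalkine receptor, had 34.4 and 36.4 CPM in class 4, against 123 and 101 CPM in class 3 (log2 fold change -1.66 ± 0.183, adjusted p = 0.000805). For the other 4 markers a difference did not pass. Lyz2, the lysozyme of myeloid cells, had 13509.8 and 13546 CPM in class 4 and 18242 and 14488 CPM in class 3 (log2 fold change -0.27 ± 0.14, adjusted p = 0.177), and Cd14, the co-receptor for endotoxin, had 147 and 117 CPM in class 4 and 132 and 121 CPM in class 3 (adjusted p = 0.889). The Fc receptor Fcgr1 and the integrin chain Itgam did not pass either, with log2 fold changes of 0.27 and -0.37. The median over the 8 markers was -0.89, beside 0.00279 for all genes.

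Transcripts that define other blood cells were higher in class 4. The group with the highest median was erythroid: all 19 tested members rose, with a median log2 fold change of 8.23. The members summed to 4319.9 and 5466 CPM in class 4, against 46.9 and 37.7 CPM in class 3. Hba-a1, an alpha-globin gene, had 916 and 1199 CPM in class 4, against 0.657 and 0.577 CPM in class 3 (log2 fold change 10.74 ± 0.684, adjusted p = 0.000156), and its copy Hba-a2 can share its reads. Hbb-b1, the adult beta-globin listed by RefSeq as Hbb-bs, had 1868 and 2407 CPM in class 4, against 2.14 and 0.608 CPM in class 3 (log2 fold change 10.63 ± 0.746, adjusted p = 0.000188). In class 3 these globins stood near or below 2 CPM. Klf1, the transcription factor that switches on the erythroid programme, had 37.2 and 59.7 CPM in class 4 and no count in either class 3 library, which is at least 998-fold higher when class 3 is set at 3 counts over both libraries. Car2, the carbonic anhydrase of red cell precursors and other cells, had 317 and 447 CPM in class 4, against 1.87 and 1.98 CPM in class 3 (log2 fold change 7.63 ± 0.416, adjusted p = 0.000123). All globin genes together took 0.385% and 0.467% of the counts of the class 4 libraries, against 0.000368% and 0.000172% of those of class 3. With all 14 primary libraries in the fit, 12 erythroid genes passed.

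Promoter bases of the globins are shown because this set moved most. The 150 bases before the RefSeq start (GRCm38.p6, gene strand) are given for 1 beta- and 1 alpha-globin gene, with the CCAAT and TATAA motifs in capitals. Both elements are known parts of globin promoters.
Hbb-bs: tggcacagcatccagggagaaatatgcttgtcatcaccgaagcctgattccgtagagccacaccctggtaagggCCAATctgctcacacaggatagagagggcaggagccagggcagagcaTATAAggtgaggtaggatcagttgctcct
Hba-a1: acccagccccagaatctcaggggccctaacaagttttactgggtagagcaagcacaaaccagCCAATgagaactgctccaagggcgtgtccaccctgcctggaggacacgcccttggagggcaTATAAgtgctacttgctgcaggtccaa
The stretch before Hbb-bs lies at chr7:103827929-103828078 on the minus strand and that before Hba-a1 at chr11:32283522-32283671 on the plus strand. CCAAT began at -76 in Hbb-bs and at -88 in Hba-a1, and TATAA at -29 and -27, counting -1 as the last base before the start. CCAAT on either strand was found in 4 of the 4 globin promoters, beside 24.5% of all 32851 promoters in the table, and TATAA on the gene strand in 4 of 4, beside 9.99%. These are matches of letters, not measured binding sites.

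B cell genes formed the next group. Of 27 tested B cell and plasma cell genes, 26 rose and none fell, with a median of 6.40. Their sum was 8191 and 6205 CPM in class 4, against 1142 and 992 CPM in class 3. Cd79a, the signalling chain of the B cell receptor, had 868 and 763 CPM in class 4, against 11.4 and 6.35 CPM in class 3 (log2 fold change 6.53 ± 0.372, adjusted p = 0.000127). Ebf1 and Pax5, transcription factors that set B cell identity, had log2 fold changes of 6.97 and 7.15. Ebf1 stood at 183 and 113 CPM in class 4, against 1.62 and 0.76 CPM in class 3. Vpreb3, which is made by B cell precursors, had 331 and 255 CPM in class 4, against 2.9 and 1.25 CPM in class 3 (log2 fold change 7.15 ± 0.473, adjusted p = 0.000172). Both class 4 libraries lay far above both class 3 libraries in each case, and 31.3% of all genes tested lay above without overlap. Rag1, the recombinase that rearranges antigen receptor genes in precursors, had 13.9 and 6.49 CPM in class 4 and no count in class 3, which is at least 210.0-fold higher at the same floor. Genes of the mature stage were also higher: Ms4a1, which encodes CD20, had 229 and 202 CPM in class 4, against 6.01 and 3.16 CPM in class 3 (log2 fold change 5.56 ± 0.499, adjusted p = 0.000399). Ighm, the mu heavy chain, had 2817 and 2018 CPM in class 4, against 654 and 561 CPM in class 3 (log2 fold change 1.99 ± 0.393, adjusted p = 0.00793), and its call was lost without class 3 replicate 2 (adjusted p = 0.0673). The member that did not pass was Xbp1, a factor of secretory cells, at 375 and 316 CPM in class 4 and 383 and 363 CPM in class 3. Immunoglobulin genes took 0.579% and 0.409% of the counts in class 4, against 0.0731% and 0.0638% in class 3.

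Neutrophil genes also rose. Of 26 members, 20 rose and none fell (median 2.80), and the sum was 49219 and 68735 CPM in class 4, against 11043 and 6735 CPM in class 3. Retnlg, a resistin-like protein of neutrophils, had 1630.2 and 2812 CPM in class 4, against 12.3 and 1.85 CPM in class 3 (log2 fold change 8.30 ± 1, adjusted p = 0.00113). S100a8, a calcium-binding alarmin subunit, had 8351 and 12893 CPM in class 4, against 1482 and 1088 CPM in class 3 (log2 fold change 3.05 ± 0.414, adjusted p = 0.00179), and its partner S100a9 had 8825 and 13144 CPM in class 4, against 1407 and 983 CPM in class 3 (log2 fold change 3.20 ± 0.558, adjusted p = 0.00485). Lcn2, a siderophore-binding granule protein, had 1216 and 1616 CPM in class 4, against 390.1 and 279 CPM in class 3 (log2 fold change 2.08 ± 0.25, adjusted p = 0.00111). The granule genes Camp and Ltf were also higher in both class 4 libraries but did not pass, with log2 fold changes of 2.48 (adjusted p = 0.0698) and 2.12 (adjusted p = 0.129). Ltf, lactoferrin, was the most expressed of those that did not pass, at 5019 and 5714 CPM in class 4 and 1631 and 841 CPM in class 3. Of the neutrophil list, 14 members passed without class 3 replicate 1, 12 without class 3 replicate 2 and 9 with all 14 primary libraries.

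Of 18 genes of mast cells, basophils and eosinophils, 5 rose (Prg2, Prg3, Epx, Ccr3 and Hdc) and none fell, with 9 higher without class 4 replicate 2 and 3 with all 14 primary libraries. The sum was 3134 and 1509 CPM in class 4, against 848 and 365 CPM in class 3. Prg2, the eosinophil major basic protein, had 946 and 301 CPM in class 4, against 0.138 and 3.86 CPM in class 3 (log2 fold change 8.25 ± 1.09, adjusted p = 0.0016). Its class 4 replicates differed by over 3-fold, and both lay above class 3. Ccr3, the eotaxin receptor, had 41.2 and 28.2 CPM in class 4, against 0.726 and 0.517 CPM in class 3 (log2 fold change 5.80 ± 0.599, adjusted p = 0.000647). With all 14 libraries the calls of Ccr3 (adjusted p = 0.168) and Epx, the eosinophil peroxidase (adjusted p = 0.148), were lost. Hdc, which makes histamine in basophils, mast cells and some neutrophils, had 275 and 286 CPM in class 4, against 38.3 and 26.4 CPM in class 3 (log2 fold change 3.12 ± 0.327, adjusted p = 0.000673). The basophil protease genes Prss34 and Mcpt8 were present in both classes. Prss34 had 1238 and 615 CPM in class 4 and 547 and 219.6 CPM in class 3 (adjusted p = 0.0798), and it passed without class 4 replicate 2 (adjusted p = 0.0227) or without class 3 replicate 1 (adjusted p = 0.0299). Mcpt8 had 348 and 153 CPM in class 4 and 176 and 74.6 CPM in class 3 (adjusted p = 0.196).

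Tissue macrophage genes rose too: 14 of 19 passed as higher, none as lower, with a median of 2.98 and a sum of 1958 and 1579 CPM in class 4, against 294 and 209 CPM in class 3. C1qa, a chain of complement C1q made by macrophages, had 127 and 148 CPM in class 4, against 6.5 and 5.2 CPM in class 3 (log2 fold change 4.56 ± 0.24, adjusted p = 0.000123), and C1qb had 266 and 216 CPM in class 4, against 10.4 and 6.87 CPM in class 3 (log2 fold change 4.80 ± 0.252, adjusted p = 0.000123). Spic, the transcription factor of iron-recycling macrophages, had 51.5 and 53.2 CPM in class 4, against 1.07 and 1.79 CPM in class 3 (log2 fold change 5.18 ± 0.322, adjusted p = 0.000153). Slc40a1, the iron exporter ferroportin, had 336 and 277 CPM in class 4, against 19.5 and 9.79 CPM in class 3 (log2 fold change 4.39 ± 0.352, adjusted p = 0.000251), and Vcam1, an adhesion molecule of marrow macrophages and stroma, had 299 and 146 CPM in class 4, against 9.09 and 6.26 CPM in class 3 (log2 fold change 4.86 ± 0.387, adjusted p = 0.000248). The groups did not overlap for any of these 5, and 31.3% of all genes tested were likewise higher in class 4 without overlap. Adgre1, listed here as Emr1 and coding for F4/80, had the highest CPM of those that did not pass, at 44.2 and 55.1 CPM in class 4 and 75.6 and 55.7 CPM in class 3 (adjusted p = 0.18).

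T and NK cell genes were also higher. Of 31 tested, 16 passed as higher and none as lower, and the sum was 537 and 487 CPM in class 4, against 65.4 and 60.3 CPM in class 3. Cd3e, a chain of the T cell receptor complex, had 3.85 and 3.72 CPM in class 4, against 0.173 and 0.0608 CPM in class 3, and its call was lost without class 3 replicate 2 (adjusted p = 0.0554) and with all 14 libraries (adjusted p = 0.19). Cd2, carried by T, NK and some other lymphoid cells, had 80.5 and 70.3 CPM in class 4, against 1.97 and 1.34 CPM in class 3 (log2 fold change 5.51 ± 0.372, adjusted p = 0.000172). Nkg7, a granule membrane protein, made up a large part of the sum, at 233 and 272 CPM in class 4, against 39.1 and 48.2 CPM in class 3. The number that passed was 8 without class 3 replicate 1, 5 without class 3 replicate 2 and 4 with all 14 libraries. Of 13 plasmacytoid dendritic cell genes 9 rose, and of these Ly6d and Spib are also made by B cells. Ly6d had 609 and 523 CPM in class 4, against 5.74 and 2.67 CPM in class 3. Spib, a transcription factor, had 241 and 202 CPM in class 4, against 4.11 and 2.1 CPM in class 3. Siglech, a receptor of plasmacytoid cells, had 14 and 21.4 CPM in class 4, against 4.32 and 2.01 CPM in class 3 (log2 fold change 2.49 ± 0.786, adjusted p = 0.0479). Its call was lost without class 4 replicate 2 (adjusted p = 0.0799), without class 3 replicate 1 (adjusted p = 0.109) and without class 3 replicate 2 (adjusted p = 0.25). The list as a whole had 5 calls without class 3 replicate 2. The conventional dendritic cell list had 3 higher and 1 lower of 17. The megakaryocyte list had 2 higher and none lower of 15, and the stromal list had 2 higher of 11. The calls came to 23.5%, 13.3% and 18.2% of these lists, beside 28.6% of all genes tested. No conventional dendritic cell gene passed as lower without class 3 replicate 1 or without class 3 replicate 2. Of the megakaryocyte list 1 passed as higher without class 3 replicate 2, and 3 as lower without class 4 replicate 2.

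**Figure D2:**
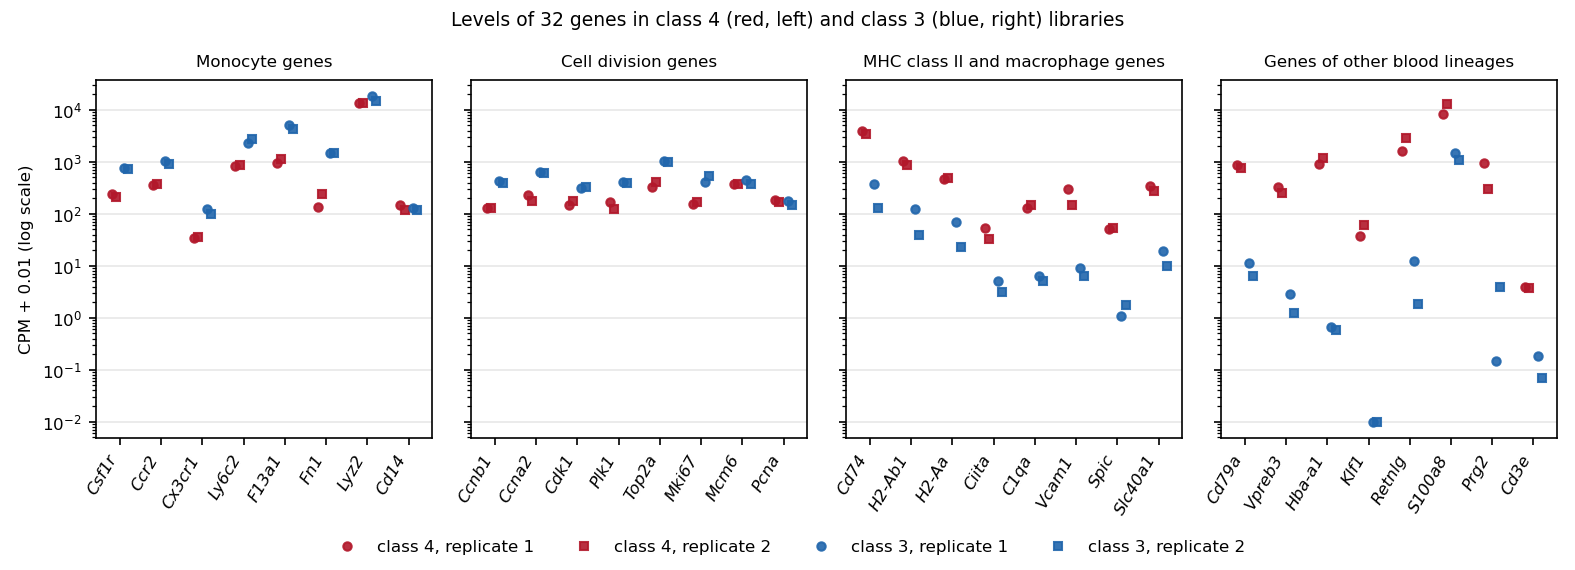
Levels of 32 genes in CPM + 0.01 on a log axis, with class 4 libraries in red on the left and class 3 libraries in blue on the right of each gene, circles for replicate 1 and squares for replicate 2. Csf1r, Ccr2, Cx3cr1, Ly6c2, F13a1 and Fn1 and the first 6 division genes were lower in class 4, while genes of macrophages, antigen presentation and other lineages were higher, and Klf1 had no count in class 3.

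MHC class II genes were higher in class 4. These molecules present peptides to CD4 T cells and are made by B cells, dendritic cells, macrophages and some monocytes. In the list of 13 antigen-presenting monocyte genes 8 rose and 2 fell, and the count of 8 was the same in every leave-one-out fit. Cd74, the invariant chain, had 3863 and 3418 CPM in class 4, against 368 and 127 CPM in class 3 (log2 fold change 3.88 ± 0.481, adjusted p = 0.00124). H2-Ab1 and H2-Aa, the beta and alpha chains of I-A, had log2 fold changes of 3.55 and 3.39, with H2-Ab1 at 1054 and 866 CPM in class 4, against 125 and 38.5 CPM in class 3. Ciita, the co-activator that controls these genes, had 53.7 and 32.9 CPM in class 4, against 5.11 and 3.07 CPM in class 3 (log2 fold change 3.41 ± 0.417, adjusted p = 0.00118). Both class 4 libraries exceeded both class 3 libraries for each of these genes, as for 31.3% of all genes tested. Within class 3, replicate 1 was about 3 times replicate 2 for Cd74 and H2-Ab1. H2-DMb2 codes for a peptide-loading chain, and H2-Oa and H2-Ob code for the chains of H2-O, which modulates that loading. H2-DMb2, H2-Oa and H2-Ob rose by 2.90, 2.59 and 4.06 on the log2 scale. H2-DMa went the other way, at 209.8 and 189 CPM in class 4, against 258 and 283 CPM in class 3 (log2 fold change -0.44 ± 0.118, adjusted p = 0.0277), and H2-DMb1 did not pass, at 75.3 and 56.5 CPM in class 4 and 90 and 78.2 CPM in class 3. The H2-DMa call was lost without class 4 replicate 2 (adjusted p = 0.1), without class 3 replicate 1 (adjusted p = 0.0667) and without class 3 replicate 2 (adjusted p = 0.16). Tgfbi, a secreted matrix protein of monocytes and macrophages, also fell, at 216 and 263 CPM in class 4, against 711 and 612 CPM in class 3 (log2 fold change -1.46 ± 0.15, adjusted p = 0.000616). The part of the B cell and macrophage transcripts given above in these values was not tested.

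Stretches before 3 of the class II genes that rose are shown with CCAAT on either strand in capitals. The inverted form, ATTGG, is the Y box of class II promoters.
H2-Aa: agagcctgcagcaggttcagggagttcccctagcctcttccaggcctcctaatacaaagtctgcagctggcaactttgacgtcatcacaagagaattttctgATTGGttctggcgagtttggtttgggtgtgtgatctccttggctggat
H2-Eb1: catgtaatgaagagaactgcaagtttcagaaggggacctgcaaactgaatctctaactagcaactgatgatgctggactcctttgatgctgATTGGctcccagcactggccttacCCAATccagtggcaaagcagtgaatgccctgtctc
H2-DMb2: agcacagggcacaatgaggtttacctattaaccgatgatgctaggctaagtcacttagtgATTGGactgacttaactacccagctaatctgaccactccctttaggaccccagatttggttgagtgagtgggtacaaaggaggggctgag
They lie at chr17:34287824-34287973 (minus strand), chr17:34305717-34305866 (plus) and chr17:34145099-34145248 (plus) of GRCm38.p6. ATTGG began at -48 in H2-Aa, at -59 in H2-Eb1 and at -90 in H2-DMb2. RefSeq had promoters for 7 of the 8 class II genes listed, in 8 stretches, and 6 of them (75%) held the motif, beside 24.5% of all promoters. The 2 stretches without it belonged to H2-DMa. H2-DMb1, which did not pass, held the motif at -61, so the motif was not confined to genes that rose.

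Mitosis genes were lower in class 4. Of 30 genes of mitotic entry, spindle and cytokinesis, 29 fell, none rose and Ttk did not pass, and the median log2 fold change was -1.23, beside 0.00279 for all genes. Their sum was 5003 and 4872 CPM in class 4, against 11964 and 11632 CPM in class 3. Ccnb1, cyclin B1, which brings cells into mitosis, had 129 and 127 CPM in class 4, against 427 and 385 CPM in class 3 (log2 fold change -1.67 ± 0.123, adjusted p = 0.000219). Ccna2, cyclin A2, had 231 and 179 CPM in class 4, against 644 and 599 CPM in class 3 (log2 fold change -1.60 ± 0.19, adjusted p = 0.00106). Top2a, the topoisomerase that untangles chromosomes, had 335 and 405 CPM in class 4, against 1040.0 and 1009 CPM in class 3 (log2 fold change -1.47 ± 0.18, adjusted p = 0.00118). Class 4 values were below class 3 values in all 30 genes, and over all genes tested 4650 of 13686 (34%) lay below without overlap. Kif11, a spindle motor, had 174 and 131 CPM in class 4, against 512 and 496 CPM in class 3 (log2 fold change -1.72 ± 0.219, adjusted p = 0.00137), Plk1, a mitotic kinase, had 171 and 122 CPM in class 4, against 411 and 387 CPM in class 3 (log2 fold change -1.45 ± 0.174, adjusted p = 0.00111) and Mki67, the Ki-67 antigen, had 156 and 169.8 CPM in class 4, against 405 and 524 CPM in class 3 (log2 fold change -1.51 ± 0.184, adjusted p = 0.00115). The smallest change that passed was that of Ccnb2, at -0.66, whose call was lost without class 3 replicate 1 (adjusted p = 0.056), and Ect2, a regulator of cytokinesis, had the largest, at -1.88. Iqgap3, a scaffold protein of dividing cells outside this list, fell further than any member, at 15.7 and 23 CPM in class 4, against 177 and 174 CPM in class 3 (log2 fold change -3.19 ± 0.211, adjusted p = 0.000172). From 27 to 29 mitosis genes passed with 1 of the 4 libraries left out, and 24 with all 14 libraries in the fit. The calls of Ccnb1 (adjusted p = 0.436), Ccna2 (adjusted p = 0.466), Ect2 (adjusted p = 0.0504) and Iqgap3 (adjusted p = 0.14) were among those lost in the last of these fits.

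Promoters of 2 mitosis genes are shown because CCAAT boxes and the cell cycle homology region (CHR, searched as TTTGAA or TTCGAA) are known elements of genes transcribed late in the cell cycle. Matches on either strand are in capitals.
Cdc20: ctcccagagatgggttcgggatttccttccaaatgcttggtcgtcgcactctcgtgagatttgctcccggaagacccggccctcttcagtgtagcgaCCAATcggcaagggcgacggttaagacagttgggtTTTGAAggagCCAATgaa
Cdk1: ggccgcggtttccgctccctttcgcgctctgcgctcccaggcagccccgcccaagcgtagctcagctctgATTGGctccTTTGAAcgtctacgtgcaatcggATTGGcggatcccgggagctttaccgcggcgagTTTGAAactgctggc
The stretch of Cdc20, the activator of the anaphase-promoting complex, lies at chr4:118437344-118437493 and that of Cdk1, the mitotic kinase, at chr10:69352913-69353062, both on the minus strand of GRCm38.p6. CCAAT began at -53 and -8 in Cdc20 and ATTGG at -80 and -48 in Cdk1, and TTTGAA at -18 in Cdc20 and at -71 and -15 in Cdk1. RefSeq had promoters for 26 of the 30 genes. Of their 28 stretches 22 (78.6%) held CCAAT and 9 (32.1%) the CHR motif, beside 24.5% and 9.7% of all promoters. Cdc20 stood at 237 and 243 CPM in class 4, against 469 and 449.8 CPM in class 3 (log2 fold change -0.94 ± 0.144, adjusted p = 0.00288), and Cdk1 at 146 and 174 CPM in class 4, against 307 and 333 CPM in class 3 (adjusted p = 0.00247).

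For genes of G1/S and DNA replication, fewer calls were made. Of 29 genes, 6 fell, 1 rose and 22 did not pass, with a median of -0.29 and a sum of 4099 and 3904 CPM in class 4, against 5298 and 4579 CPM in class 3. The calls came to 24.1% of the list, beside 28.6% of all genes tested. The groups did not overlap for 24 of the 29 genes, and over all genes tested this share was 65.3%. Pola1, a subunit of DNA polymerase alpha, had 37 and 33.9 CPM in class 4, against 87.6 and 82.6 CPM in class 3 (log2 fold change -1.26 ± 0.21, adjusted p = 0.00398), and Rrm1, of ribonucleotide reductase, had 292 and 233 CPM in class 4, against 584 and 501 CPM in class 3 (log2 fold change -1.05 ± 0.2, adjusted p = 0.00696). Pcna, the polymerase clamp, overlapped between the classes at 184 and 169 CPM in class 4 and 174 and 146 CPM in class 3. Mcm6, a helicase subunit, overlapped too, at 376 and 374 CPM in class 4 and 451 and 368 CPM in class 3. Rrm2 had the highest CPM of those that did not pass, at 479 and 427 CPM in class 4 and 598 and 517 CPM in class 3. Ribosome biogenesis genes had more calls upward, with 9 higher and 1 lower of 22 and a median of 0.44. Nop56, a core protein of small nucleolar particles, had 180.4 and 177 CPM in class 4, against 91.7 and 92.6 CPM in class 3 (log2 fold change 0.96 ± 0.134, adjusted p = 0.002), and Ncl, nucleolin, had 526 and 701 CPM in class 4, against 373 and 351 CPM in class 3 (log2 fold change 0.76 ± 0.152, adjusted p = 0.00836). The Ncl call was lost without class 3 replicate 2 (adjusted p = 0.0671). Myc, a transcription factor for such genes, had 170.3 and 145 CPM in class 4, against 37.1 and 35.3 CPM in class 3 (log2 fold change 2.12 ± 0.272, adjusted p = 0.00141). Of the ribosome biogenesis genes, 4 passed as higher without class 3 replicate 1 and 3 without class 3 replicate 2.

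**Figure D3:**
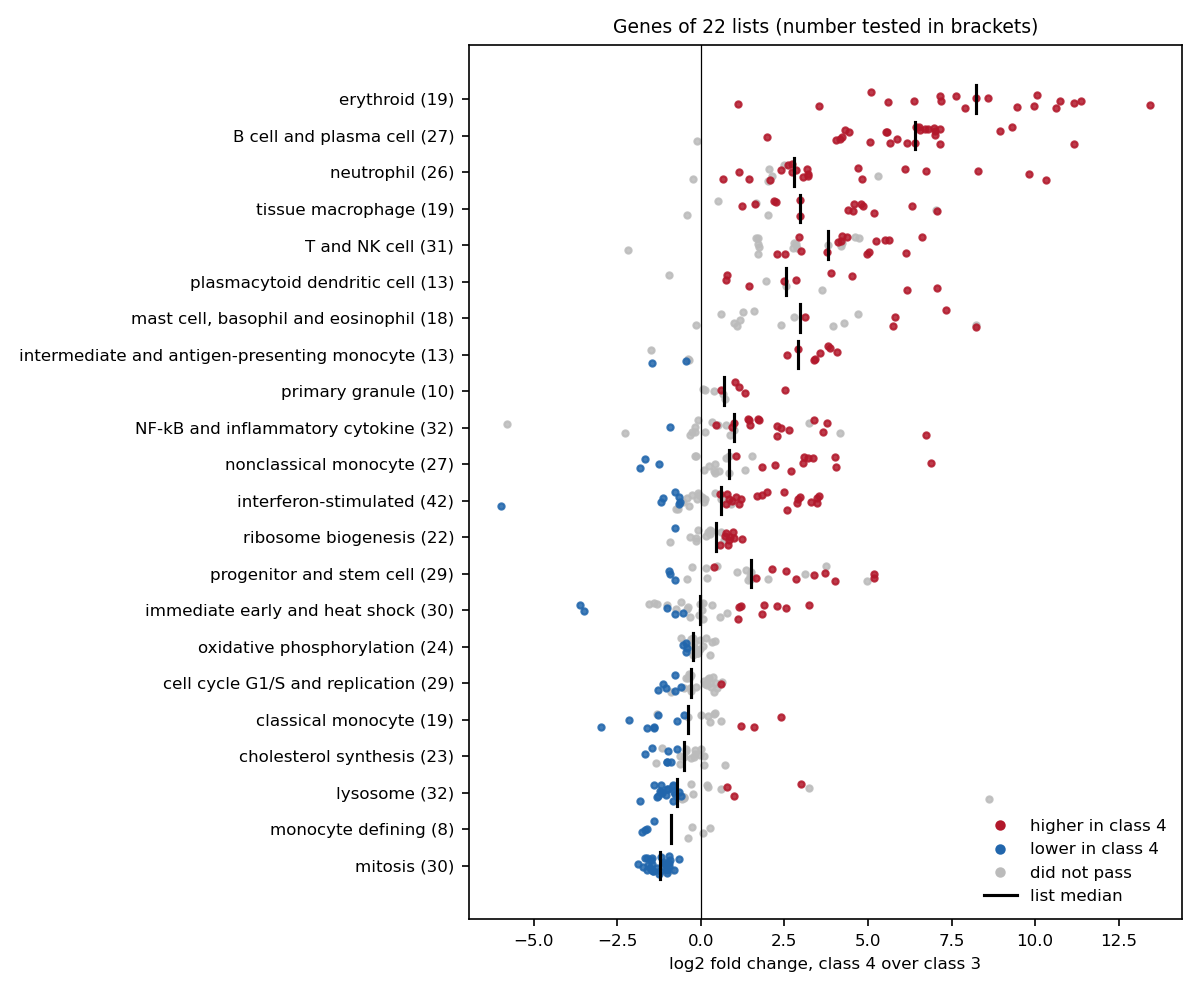
Each point is a gene of 1 of 22 lists, placed by its log2 fold change of class 4 over class 3, red where higher, blue where lower and grey where it did not pass, with a bar at the list median. Medians run from 8.23 for the erythroid list at the top to -1.23 for the mitosis list at the bottom, and the mitosis points lie to the left of 0.

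Growth factor and cytokine receptors were lower in class 4 more often than higher. Of 28 receptor genes 10 fell and 5 rose, 3 of them without class 3 replicate 2. Beside Csf1r, the GM-CSF receptor chains fell: Csf2ra had 247 and 292 CPM in class 4, against 733 and 752 CPM in class 3 (log2 fold change -1.46 ± 0.139, adjusted p = 0.000483), and the shared beta chain Csf2rb had 64.8 and 72.3 CPM in class 4, against 217 and 213 CPM in class 3 (log2 fold change -1.65 ± 0.126, adjusted p = 0.000232). Il6ra, the interleukin-6 receptor chain, had 32.4 and 33.8 CPM in class 4, against 119.8 and 156 CPM in class 3 (log2 fold change -2.06 ± 0.163, adjusted p = 0.000248). Tnfrsf1b, a TNF receptor, fell as well, at 106 and 129.9 CPM in class 4, against 255 and 252 CPM in class 3. Those that rose included Il1r2, the decoy receptor for interleukin-1 made by neutrophils and some other cells, at 78.9 and 70.3 CPM in class 4, against 5.88 and 3.83 CPM in class 3 (log2 fold change 3.94 ± 0.362, adjusted p = 0.000425), and Il2rg, the common gamma chain, at 156 and 112 CPM in class 4, against 37.4 and 28.2 CPM in class 3 (log2 fold change 2.03 ± 0.204, adjusted p = 0.000571). Kit, the stem cell factor receptor, was higher in both class 4 libraries but did not pass, at 14.5 and 20.7 CPM in class 4 and 7.36 and 5.08 CPM in class 3 (adjusted p = 0.0578), and it passed without class 4 replicate 1 (adjusted p = 0.0315). Flt3 overlapped between the classes, at 21.2 and 16 CPM in class 4 and 26.5 and 18.5 CPM in class 3. Ifngr1, an interferon gamma receptor chain, had the highest CPM of the receptors that did not pass, at 332 and 347 CPM in class 4 and 456 and 384 CPM in class 3.

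Adhesion and homing molecules changed in both directions, with 10 lower and 6 higher of 31. Itgb7, an integrin beta chain, had 271 and 256 CPM in class 4, against 1107 and 887 CPM in class 3 (log2 fold change -1.92 ± 0.149, adjusted p = 0.000242), and Itgal, the alpha chain of LFA-1, had 68.2 and 65.6 CPM in class 4, against 227 and 243 CPM in class 3 (log2 fold change -1.81 ± 0.215, adjusted p = 0.00106). Selplg, the P-selectin ligand, had 539 and 528 CPM in class 4, against 1283 and 1309.6 CPM in class 3 (log2 fold change -1.28 ± 0.132, adjusted p = 0.000645). Class 4 stood below class 3 without overlap in these integrin and selectin ligand genes, as it did in 34% of all genes tested. Gpr35, a G protein-coupled receptor, had 8.54 and 9.56 CPM in class 4, against 58.4 and 60.2 CPM in class 3 (log2 fold change -2.71 ± 0.164, adjusted p = 0.000139). Ccr7, which guides lymphocytes and mature dendritic cells to lymph nodes, rose, at 185 and 114 CPM in class 4, against 5.77 and 1.46 CPM in class 3. S1pr1, which lymphocytes use to leave tissues, rose too, at 94.7 and 85.1 CPM in class 4, against 2.97 and 1.4 CPM in class 3. Fpr1, the formyl peptide receptor of phagocytes, had 55.6 and 57.1 CPM in class 4, against 0.588 and 0.0912 CPM in class 3 (log2 fold change 7.40 ± 0.634, adjusted p = 0.000336). Cxcr2, the neutrophil chemokine receptor, had 114 and 77.6 CPM in class 4, against 3.97 and 3.34 CPM in class 3 (log2 fold change 4.71 ± 0.969, adjusted p = 0.00961), and its call was lost without class 3 replicate 1 (adjusted p = 0.07) or replicate 2 (adjusted p = 0.0845).

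Classical monocyte genes were divided. Of 19, 8 fell and 3 rose (median -0.37). F13a1, the A chain of coagulation factor XIII, had 968 and 1150.1 CPM in class 4, against 5027 and 4362 CPM in class 3 (log2 fold change -2.15 ± 0.186, adjusted p = 0.000346), and Fn1, fibronectin, had 135 and 236 CPM in class 4, against 1477 and 1464 CPM in class 3 (log2 fold change -2.99 ± 0.35, adjusted p = 0.001). S100a4 had 51.3 and 60.3 CPM in class 4, against 139.7 and 152 CPM in class 3 (log2 fold change -1.38 ± 0.158, adjusted p = 0.000908). Class 4 lay below class 3 without overlap in all 3, as it did in 34% of all genes tested. Chi3l3, a chitinase-like protein with near-identical copies, did not pass, at 3403 and 3658 CPM in class 4 and 3547 and 2549 CPM in class 3. Hp, haptoglobin, did not pass either, at 939 and 1067 CPM in class 4 and 1074 and 939 CPM in class 3. Mmp8, the neutrophil collagenase that stands in both lists, rose, at 829.8 and 1122 CPM in class 4, against 212 and 159 CPM in class 3. Of 27 nonclassical genes 11 rose and 3 fell (median 0.86). Nr4a1, the receptor that nonclassical monocytes need, had 402 and 393 CPM in class 4, against 129 and 96.1 CPM in class 3 (log2 fold change 1.82 ± 0.188, adjusted p = 0.000647). Hes1, a Notch target, had 44.5 and 35.6 CPM in class 4, against 0.242 and 0.425 CPM in class 3 (log2 fold change 6.87 ± 0.516, adjusted p = 0.000232), and Treml4 had 22 and 35.3 CPM in class 4, against 5.77 and 3.04 CPM in class 3 (log2 fold change 2.71 ± 0.452, adjusted p = 0.00405). The 3 that fell were Cx3cr1, Itgal and Spn, sialophorin, which had 52.8 and 57.5 CPM in class 4, against 115 and 146 CPM in class 3.

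Of the 15 genes that mark neutrophil-like monocytes, 7 rose and none fell (median 1.15), and they overlap with the neutrophil list. Their sum was 40404 and 50464 CPM in class 4, against 17704 and 14518 CPM in class 3. With all 14 primary libraries in the fit, 1 of the 15 passed as higher. Mpo, myeloperoxidase, the peroxidase of primary granules, was higher in both class 4 libraries but did not pass, at 5349.8 and 5799.7 CPM in class 4 and 2949 and 3754 CPM in class 3 (log2 fold change 0.73 ± 0.26, adjusted p = 0.0681). The serine protease genes of these granules did not pass. Elane, neutrophil elastase, had 2015 and 2413 CPM in class 4 and 1577 and 1804 CPM in class 3. Prtn3, proteinase 3, overlapped between the classes, at 834 and 982 CPM in class 4 and 844 and 881 CPM in class 3. Of 10 primary granule genes 5 rose, among them Serpinb1a, an inhibitor of these proteases, at 525 and 661 CPM in class 4, against 305 and 236 CPM in class 3 (log2 fold change 1.13 ± 0.181, adjusted p = 0.00333), and Srgn, the granule proteoglycan serglycin, at 695 and 758 CPM in class 4, against 283 and 299 CPM in class 3 (log2 fold change 1.32 ± 0.161, adjusted p = 0.00115). Of these counts, 3 neutrophil-like and 3 primary granule genes passed without class 3 replicate 1, and 3 of each without class 3 replicate 2. Without class 4 replicate 2, 3 primary granule genes passed.

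NF-kB targets and cytokines were higher in class 4 more often than lower. Of 32 such genes 16 rose and 1 fell, with a median of 0.99. Il1b, interleukin-1 beta, had 340.3 and 275 CPM in class 4, against 3.7 and 2.07 CPM in class 3 (log2 fold change 6.75 ± 0.431, adjusted p = 0.000156). Nfkbia, the inhibitor that NF-kB itself induces, had 934 and 989.8 CPM in class 4, against 297 and 279.8 CPM in class 3 (log2 fold change 1.74 ± 0.12, adjusted p = 0.000184), and Cxcl2, a neutrophil chemokine, had 234 and 390.1 CPM in class 4, against 14 and 35.7 CPM in class 3 (log2 fold change 3.65 ± 0.496, adjusted p = 0.00179). The groups did not overlap for any of the 3, and 31.3% of all genes tested were likewise higher in class 4 without overlap. Il1rn, the interleukin-1 receptor antagonist, had 69.1 and 60 CPM in class 4, against 5.53 and 3.92 CPM in class 3 (log2 fold change 3.77 ± 0.266, adjusted p = 0.000188), and Tnfaip3, the NF-kB inhibitor A20, had 268 and 215 CPM in class 4, against 106 and 72.9 CPM in class 3 (log2 fold change 1.43 ± 0.198, adjusted p = 0.00192). With all 14 libraries the call of Il1rn (adjusted p = 0.14) was lost. Ccl3, a monocyte chemokine, was the most expressed that did not pass, at 191 and 211 CPM in class 4 and 213 and 236 CPM in class 3. Ccl9, another chemokine, was the member that fell, at 193 and 141 CPM in class 4, against 377 and 251 CPM in class 3, and its call was lost without class 4 replicate 2 (adjusted p = 0.0753) or class 3 replicate 1 (adjusted p = 0.146). Neutrophil transcripts, whose sums are given above, moved in the same libraries, and their part in the Il1b difference was not tested.

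Immediate early and heat shock genes moved in both directions (8 higher and 5 lower of 30, median -0.04). With all 14 primary libraries in the fit 3 passed as lower. Among all genes tested 13% were higher and 15.7% lower. Many immediate early and heat shock genes respond quickly to stress and cell handling. Fos, the most abundant member that did not pass, had 2269 and 3495 CPM in class 4 and 4048 and 5508 CPM in class 3, and Jun had 1299 and 1688 CPM in class 4 and 2406 and 3607 CPM in class 3. Both were lower in class 4 without overlap, as were 34% of all genes tested, and neither passed (adjusted p = 0.141 and 0.12). Hspa1a and Hspa1b, near-identical copies of the inducible heat shock protein 70 whose reads can be split between them, were among the genes that fell most. Hspa1a had 51 and 136 CPM in class 4, against 934 and 1326 CPM in class 3 (log2 fold change -3.60 ± 0.562, adjusted p = 0.00307). Hspa1b had 54.8 and 159.5 CPM in class 4, against 1002 and 1394 CPM in class 3 (log2 fold change -3.48 ± 0.614, adjusted p = 0.00504). The class 4 replicates differed by more than 2-fold from each other, and both were far below class 3. The constitutive chaperone Hspa8 did not pass, at 998 and 846 CPM in class 4 and 1157 and 1299 CPM in class 3. Dusp2, a phosphatase that limits kinase signalling, rose, at 533 and 489 CPM in class 4, against 37 and 71 CPM in class 3 (log2 fold change 3.24 ± 0.419, adjusted p = 0.00145), as did Junb, at 1773 and 1851 CPM in class 4, against 809.9 and 829.5 CPM in class 3 (log2 fold change 1.14 ± 0.142, adjusted p = 0.00124). In the unfolded protein response list 5 of 21 rose and 2 fell, with 3 higher without class 4 replicate 2 or class 3 replicate 1. The number lower was 1 without class 4 replicate 1 or class 3 replicate 1 and 0 without class 3 replicate 2. Ddit3, the stress factor CHOP, had 88.1 and 88.8 CPM in class 4, against 25.7 and 27.2 CPM in class 3 (log2 fold change 1.74 ± 0.145, adjusted p = 0.00029), and the chaperone Hspa5, the most expressed that did not pass, had 1719 and 1412 CPM in class 4 and 1385 and 1596 CPM in class 3.

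Interferon-stimulated genes moved in both directions, with 20 higher and 7 lower of 42 (median 0.59). Isg20, an antiviral nuclease, had 45.9 and 57.2 CPM in class 4, against 5.46 and 3.86 CPM in class 3 (log2 fold change 3.47 ± 0.239, adjusted p = 0.000184), and Rsad2, viperin, had 40.5 and 78.3 CPM in class 4, against 6.81 and 3.83 CPM in class 3 (log2 fold change 3.48 ± 0.432, adjusted p = 0.00124). Isg15, the ubiquitin-like modifier, had 27.4 and 44.4 CPM in class 4, against 6.88 and 5.2 CPM in class 3 (log2 fold change 2.57 ± 0.296, adjusted p = 0.000954). Levels in class 4 were several times those in class 3 for these genes. Ly6e, a surface antigen with broad expression, fell, at 1855 and 1747 CPM in class 4, against 2881 and 2819.9 CPM in class 3 (log2 fold change -0.66 ± 0.115, adjusted p = 0.00469). The number higher was 10 when only the 4 libraries were fitted, 10 without class 3 replicate 2 and 12 with all 14 libraries, and the number lower was 3 without class 3 replicate 1 and 3 without class 3 replicate 2.

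Sensors and uptake receptors were divided. Of 28 pattern recognition receptors 4 rose and 9 fell. Clec4d and Clec4e are lectins that recognise mycobacterial and fungal lipids. Clec4d had 35 and 38.9 CPM in class 4, against 2.21 and 1.55 CPM in class 3 (log2 fold change 4.29 ± 0.342, adjusted p = 0.000248). Clec4e had 118 and 153 CPM in class 4, against 31.3 and 20.4 CPM in class 3 (log2 fold change 2.39 ± 0.254, adjusted p = 0.000694). Tlr2 rose, at 159.8 and 155 CPM in class 4, against 92.4 and 77.5 CPM in class 3 (log2 fold change 0.89 ± 0.127, adjusted p = 0.00218), while Tlr4, the endotoxin receptor, had 7.16 and 8.54 CPM in class 4, against 19.4 and 16.7 CPM in class 3 (log2 fold change -1.20 ± 0.244, adjusted p = 0.00903). The Tlr4 call was lost without class 3 replicate 1 (adjusted p = 0.0614), and of the 9 lower members 3 passed without class 3 replicate 1 and 2 without class 3 replicate 2. Clec12a was the most expressed that did not pass, at 357 and 424 CPM in class 4 and 321 and 360.4 CPM in class 3. Of 26 phagocytic receptors 7 rose and 6 fell, with 4 higher without class 3 replicate 2 and 3 lower without class 3 replicate 1. C5ar1, the receptor for complement C5a, had 198 and 210.1 CPM in class 4, against 22.3 and 12.5 CPM in class 3 (log2 fold change 3.55 ± 0.383, adjusted p = 0.000737), and Axl, a receptor for dying cells on macrophages, had 129 and 115 CPM in class 4, against 18.8 and 12.6 CPM in class 3 (log2 fold change 2.96 ± 0.274, adjusted p = 0.000435). Trem2, a lipid sensor of macrophages, went the other way, at 16.3 and 15.2 CPM in class 4, against 58.5 and 57.7 CPM in class 3 (log2 fold change -1.88 ± 0.274, adjusted p = 0.00231). The signalling chain Fcer1g was the most expressed that did not pass, at 797 and 895 CPM in class 4 and 889.6 and 865 CPM in class 3. Among the NADPH oxidase subunits Cybb, the catalytic chain, fell, at 651 and 650.1 CPM in class 4, against 1120.5 and 929 CPM in class 3 (log2 fold change -0.66 ± 0.152, adjusted p = 0.0157). Rac2, the GTPase of the complex, rose, at 1328 and 1525 CPM in class 4, against 1004 and 883 CPM in class 3 (log2 fold change 0.60 ± 0.152, adjusted p = 0.0224), and the other 4 did not pass. The Cybb call was lost without class 3 replicate 1 (adjusted p = 0.0874). The Rac2 call was lost without class 4 replicate 2 (adjusted p = 0.0763), class 3 replicate 1 (adjusted p = 0.0584) or class 3 replicate 2 (adjusted p = 0.141).

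Lysosomal genes were lower in class 4. Of 32 tested 18 fell and 3 rose (1 when class 4 replicate 1 or either class 3 library was left out), and the median was -0.71. Psap, prosaposin, had 1561 and 1418 CPM in class 4, against 3787 and 3449 CPM in class 3 (log2 fold change -1.28 ± 0.165, adjusted p = 0.00143), and Lamp1, a membrane glycoprotein, had 691 and 744 CPM in class 4, against 1933 and 1651 CPM in class 3 (log2 fold change -1.32 ± 0.161, adjusted p = 0.00116). Grn, progranulin, had 629 and 538 CPM in class 4, against 1298 and 1323 CPM in class 3 (log2 fold change -1.17 ± 0.122, adjusted p = 0.000673). Ctsb, cathepsin B, was the most expressed that did not pass, at 1486 and 1277 CPM in class 4 and 1869 and 1523 CPM in class 3. Cd63, a membrane protein that is also abundant in mast cells and granulocyte precursors, went the other way, at 329.8 and 369 CPM in class 4, against 51.6 and 35 CPM in class 3 (log2 fold change 3.01 ± 0.31, adjusted p = 0.000639). Cholesterol synthesis showed 7 lower and none higher of 23 (median -0.49), among them Srebf2, the regulator of the pathway, at 38.2 and 33.1 CPM in class 4, against 109 and 119 CPM in class 3 (log2 fold change -1.68 ± 0.222, adjusted p = 0.00159). Of this list 3 passed as lower without class 3 replicate 1, and 3 without class 3 replicate 2. In lipid handling 8 of 21 rose and 5 fell (3 without class 3 replicate 2). Scd1, a fatty acid desaturase, had 92 and 58.1 CPM in class 4, against 1.87 and 2.46 CPM in class 3 (log2 fold change 5.11 ± 0.42, adjusted p = 0.000272), and Apoe, apolipoprotein E, had 731 and 683 CPM in class 4, against 184 and 73.7 CPM in class 3 (log2 fold change 2.45 ± 0.38, adjusted p = 0.00298). Lrp1, its receptor, fell, at 26.6 and 31.8 CPM in class 4, against 70.2 and 90.7 CPM in class 3 (log2 fold change -1.46 ± 0.163, adjusted p = 0.000835).

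Glycolytic and hypoxia genes changed in both directions. Of 25 glycolytic and hypoxia genes 4 rose and 7 fell (median 0.01), of which 4 passed as lower and 1 as higher without class 3 replicate 1, and 4 and 2 without class 3 replicate 2. Slc2a3, a glucose transporter, had 147 and 214 CPM in class 4, against 28 and 18.2 CPM in class 3 (log2 fold change 2.96 ± 0.443, adjusted p = 0.00259), and Hk1, a hexokinase, had 71.9 and 99.6 CPM in class 4, against 168 and 164 CPM in class 3 (log2 fold change -0.95 ± 0.188, adjusted p = 0.00794). Eno1, enolase, was the most expressed that did not pass, at 822 and 868 CPM in class 4 and 1206 and 935 CPM in class 3. In oxidative phosphorylation 4 of 24 fell and none rose (median -0.22). That is 16.7% of the list, close to the 15.7% of all genes tested that were lower. With all 14 primary libraries in the fit 0 passed. Atp5b, of the ATP synthase, had 1068 and 1158 CPM in class 4, against 1599 and 1349.8 CPM in class 3 (log2 fold change -0.41 ± 0.128, adjusted p = 0.0476), and its call was lost when any of the 4 libraries was left out (adjusted p 0.053 to 0.236).

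Among myeloid transcription factors 13 of 39 rose and 9 fell, with 8 higher without class 3 replicate 2. Cebpa, which drives the granulocyte-monocyte fate, had 6.88 and 11 CPM in class 4, against 42.4 and 63.5 CPM in class 3 (log2 fold change -2.57 ± 0.341, adjusted p = 0.0016). Irf8, which directs progenitors to monocytes, had 712 and 688 CPM in class 4, against 1344 and 1378 CPM in class 3 (log2 fold change -0.96 ± 0.121, adjusted p = 0.00132), and Klf4, a monocyte factor, had 90.3 and 115 CPM in class 4, against 171 and 243 CPM in class 3 (log2 fold change -1.01 ± 0.217, adjusted p = 0.0115). The Klf4 call was lost without class 3 replicate 2 (adjusted p = 0.0818), while Cebpa and Irf8 passed when either class 3 library was left out. Zeb2 fell as well, at 129 and 138 CPM in class 4, against 267 and 305 CPM in class 3 (log2 fold change -1.10 ± 0.123, adjusted p = 0.000842). PU.1, a master factor of myeloid cells listed as Sfpi1, did not pass, at 625 and 624 CPM in class 4 and 636 and 598 CPM in class 3 (log2 fold change 0.02 ± 0.108, adjusted p = 0.93). Cebpb, needed for nonclassical monocytes, did not pass either, at 806 and 937 CPM in class 4 and 946 and 963 CPM in class 3 (adjusted p = 0.466). Those that rose include factors of lymphoid cells, among them Bach2, at 134 and 89.9 CPM in class 4, against 6.67 and 6.08 CPM in class 3 (log2 fold change 4.14 ± 0.3, adjusted p = 0.000212). Irf4 had 71 and 33.5 CPM in class 4, against 3.7 and 1.58 CPM in class 3. Ets1 had 239 and 209.8 CPM in class 4, against 29.8 and 15 CPM in class 3. Gfi1, a factor of granulocytes, had 23.1 and 62.6 CPM in class 4, against 3.14 and 3.31 CPM in class 3 (log2 fold change 3.73 ± 0.6, adjusted p = 0.00347), with the class 4 replicates over 2-fold apart. With all 14 libraries the calls of Gfi1 (adjusted p = 0.128) and Klf4 (adjusted p = 0.148) were lost. In the progenitor list 10 of 29 rose and 3 fell. Sox4 had 271 and 186 CPM in class 4, against 5.81 and 6.81 CPM in class 3 (log2 fold change 5.18 ± 0.393, adjusted p = 0.000232). Cd34, the marker of stem and progenitor cells, overlapped between the classes, at 78.6 and 48.7 CPM in class 4 and 51.6 and 61.9 CPM in class 3 (adjusted p = 0.804), and Myb, at 174 and 143 CPM in class 4 and 52.8 and 71.5 CPM in class 3, did not pass (adjusted p = 0.0702). Of this list, 6 passed as higher without class 3 replicate 1 and 5 without class 3 replicate 2. Sox4, Bach2, Irf4 and Ets1 are also made by B cells or their precursors. B cell transcripts, whose sums are given above, moved in the same libraries, and their part in these values was not tested.

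The Ly6 and Ms4a surface families held 6 genes that rose and 6 that fell of 18. Ms4a6c, a tetraspan protein of monocytes and macrophages, had 263 and 249 CPM in class 4, against 685 and 727 CPM in class 3 (log2 fold change -1.46 ± 0.113, adjusted p = 0.000241), and Ms4a6b had 88.8 and 91.1 CPM in class 4, against 188 and 162 CPM in class 3 (log2 fold change -0.96 ± 0.132, adjusted p = 0.00187). Ly6a, the Sca-1 antigen, had 22.5 and 27.3 CPM in class 4, against 0.346 and 1 CPM in class 3 (log2 fold change 5.18 ± 0.448, adjusted p = 0.000346), and Ly6g, the neutrophil antigen, had 15.6 and 24.5 CPM in class 4, against 3.04 and 1.34 CPM in class 3 (log2 fold change 3.19 ± 0.571, adjusted p = 0.00532). Ms4a6c and Ms4a6b thus fell together with Ly6c2, and Ly6a and Ly6g rose, the call of Ly6g being lost with all 14 libraries (adjusted p = 0.233). Ms4a3, a gene of granulocyte-monocyte progenitors, had 226 and 272 CPM in class 4, against 106 and 138 CPM in class 3, and its call was lost without class 4 replicate 2 (adjusted p = 0.0567), class 3 replicate 1 (adjusted p = 0.158) or class 3 replicate 2 (adjusted p = 0.0662).

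The genes were also ranked by size of change, after 147 genes known by a clone or model number were passed over. The 15 genes that rose most among those that averaged 3 or more in log2 CPM and whose groups were apart held many genes of other lineages. They were Hba-a1, Hbb-b1, Hba-a2 and Car2 of red cells, Vpreb3, Fam129c, Ly6d, Cd72, Iglc2, Ebf1, Blnk and Iglc3 of B cells, Retnlg, Prg2 and Il1b. Blnk, the adapter of the B cell receptor, had 234 and 215 CPM in class 4, against 2.45 and 1.58 CPM in class 3 (log2 fold change 6.80 ± 0.408, adjusted p = 0.000139), and Cd72, a B cell surface lectin, had 379 and 304 CPM in class 4, against 3.91 and 1.31 CPM in class 3 (log2 fold change 7.05 ± 0.555, adjusted p = 0.000248). The 15 that fell most were Hspa1a, Mast2, Atp7a, Hspa1b, Plxnd1, Fam38a, Plcb1, Iqgap3, Fn1, Nlrp1a, Mir5115, Apba1, Gpr35, Met and Fndc3b. Atp7a, a copper transporter, had 2.81 and 3.55 CPM in class 4, against 31.1 and 41 CPM in class 3 (log2 fold change -3.50 ± 0.247, adjusted p = 0.000188), and Plxnd1, a semaphorin receptor, had 5.54 and 5.6 CPM in class 4, against 44.1 and 74.5 CPM in class 3 (log2 fold change -3.41 ± 0.342, adjusted p = 0.000567). Met, the hepatocyte growth factor receptor, had 18.4 and 30.5 CPM in class 4, against 121 and 184 CPM in class 3 (log2 fold change -2.64 ± 0.377, adjusted p = 0.00218). Each of these was several-fold lower in both class 4 libraries. Nlrp1a, an inflammasome sensor, had 7.13 and 5.09 CPM in class 4, against 43.4 and 49.8 CPM in class 3 (log2 fold change -2.93 ± 0.281, adjusted p = 0.000488), and Plcb1, a phospholipase C, had 6.35 and 10.4 CPM in class 4, against 68.7 and 83.7 CPM in class 3 (log2 fold change -3.19 ± 0.29, adjusted p = 0.000408). Neither passed with all 14 libraries (adjusted p = 0.115 for Nlrp1a and 0.071 for Plcb1). Fam38a, which is the mechanosensitive channel Piezo1, rested on unlike class 4 replicates, at 12.4 and 0.615 CPM in class 4, against 54.3 and 73.2 CPM in class 3 (log2 fold change -3.29 ± 0.983, adjusted p = 0.0399), and its call was lost without class 3 replicate 1 (adjusted p = 0.0979) or replicate 2 (adjusted p = 0.145). That of Mir5115 was lost without class 3 replicate 2 (adjusted p = 0.0537).

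The other 2 classes are given beside these values. Comparisons with them share the class 4 or class 3 libraries and are not independent of the direct one. Against the mean of classes 1 and 2, 2780 genes were higher in class 4 (20.3%) and 2802 lower (20.5%), 40.8% of those tested in all, and 1510 were higher in class 3 (11%) and 1551 lower (11.3%), 22.4% in all. All 8 monocyte markers were lower in class 4 than in classes 1 and 2, and 7 were lower in class 3. The other, Ly6c2, was higher in class 3 than in classes 1 and 2 (log2 fold change 0.588, adjusted p = 0.00626). It had 2316 and 2785 CPM in class 3, against 2223 and 2339 CPM in class 1 and 1274 and 1252 CPM in class 2. Csf1r had 236 and 209 CPM in class 4, against 759 and 742 CPM in class 3, 1923 and 1854 CPM in class 1 and 1896 and 2487 CPM in class 2. Class 4 thus had the lowest Csf1r of the 4 classes and class 3 the next. All 30 mitosis genes were higher in class 4, and all 30 in class 3, than in the mean of classes 1 and 2, which were themselves far apart. Ccnb1 had 129 and 127 CPM in class 4, against 427 and 385 CPM in class 3, 152 and 166 CPM in class 1 and 7.9 and 8.03 CPM in class 2. Class 4 lay just below class 1, while class 3 lay above all the others. Mpo had 5349.8 and 5799.7 CPM in class 4, against 2949 and 3754 CPM in class 3, 302 and 489 CPM in class 1 and 50.5 and 34.8 CPM in class 2, so class 4 and class 3 both lay far above the other 2 classes.

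The B cell genes gave a different order. Of the 27, 25 were higher in class 4 than in classes 1 and 2, while 23 were lower in class 3. Cd79a had 868 and 763 CPM in class 4, against 11.4 and 6.35 CPM in class 3, 87.9 and 98.9 CPM in class 1 and 32 and 52.9 CPM in class 2. Class 4 was the highest and class 3 the lowest of the 4 classes in this gene, and neither overlapped with another class. All 19 erythroid genes were higher in class 4 than in classes 1 and 2, and Hba-a1 had 916 and 1199 CPM in class 4, against 0.657 and 0.577 CPM in class 3, 9.16 and 26.2 CPM in class 1 and 0.692 and 1.65 CPM in class 2. Cd74 had another order, at 3863 and 3418 CPM in class 4, against 368 and 127 CPM in class 3, 9995 and 9653 CPM in class 1 and 3841 and 6144 CPM in class 2. Class 4 lay below class 1 and overlapped with class 2, and class 3 lay below all of them. C1qa had 127 and 148 CPM in class 4, against 6.5 and 5.2 CPM in class 3, 189 and 142 CPM in class 1 and 3.18 and 2.38 CPM in class 2, which puts class 4 next to class 1 and class 3 next to class 2. Nr4a1 had 402 and 393 CPM in class 4, against 129 and 96.1 CPM in class 3, 680.1 and 554 CPM in class 1 and 1107 and 1357 CPM in class 2, so that class 4 was above class 3 and below the other 2 classes. Of 42 interferon-stimulated genes, 36 were lower in class 4 and 39 in class 3 than in classes 1 and 2. Of 32 NF-kB and cytokine genes, 4 were higher and 16 lower in class 4, and 0 higher and 25 lower in class 3. Of 27 nonclassical genes, 2 were higher and 16 lower in class 4, and 1 higher and 20 lower in class 3. Granulocyte genes were higher in both: of 26 neutrophil genes 22 in class 4 and 11 in class 3, where 5 were lower. Of 18 mast cell, basophil and eosinophil genes 15 were higher in class 4 and 9 in class 3, where 1 was lower. These 18 summed to 848 and 365 CPM in class 3, against 31.7 and 34.3 CPM in class 1 and 4.31 and 7.64 CPM in class 2.

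**Figure D4:**
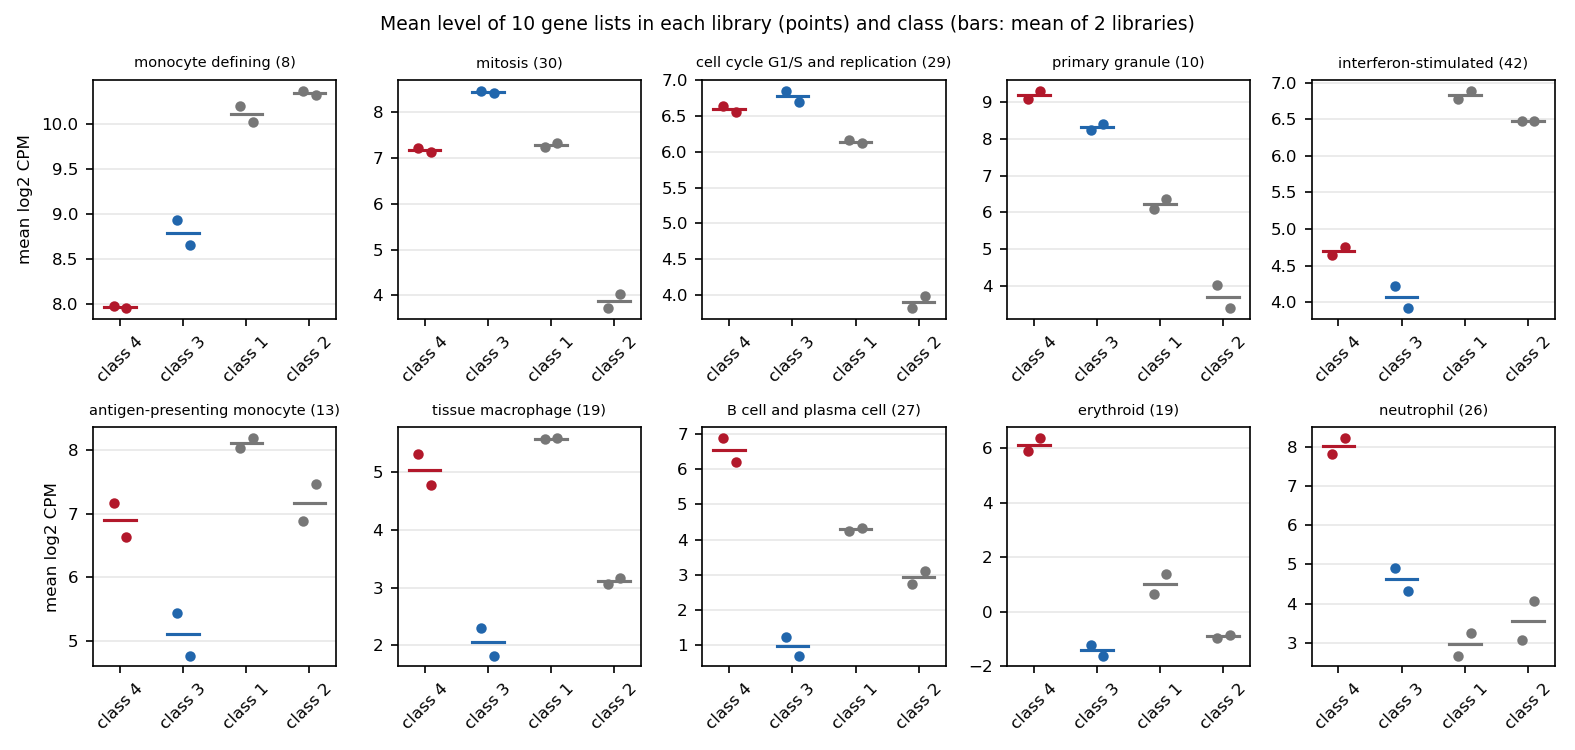
Mean log2 CPM of the genes of 10 lists (numbers in brackets) in each of the 2 libraries of class 4, class 3, class 1 and class 2, with a bar at the class mean and a separate y axis for each list. Class 4 is lowest for the 8 monocyte markers, class 3 is highest for mitosis, and class 3 is lowest for antigen-presenting monocyte, macrophage, B cell and erythroid genes. The erythroid order of class 3 and class 2 rests on very low levels. Their summed CPM ran the other way, at 46.9 and 37.7 in class 3 and 28.9 and 31.6 in class 2.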

How the data were processed

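Bulk RNA sequencing libraries of flow-sorted mouse bone marrow monocytes were compared through 1 table of raw read counts per gene that the authors deposited, with Ensembl identifiers and gene symbols. Reads were aligned with STAR 2.7.3a to mm9 and counted with HTSeq 0.6.0, per the submitters' processing notes. The annotation release and the strand setting are not given in the sources used here, so overlapping, antisense and near-identical genes are uncertain, such as the alpha-globin and Hspa1 copies. The table has 1 column that matches no sample, and it was not used.

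Genes were kept with edgeR 4.0.16 in R 4.3.3 (filterByExpr, minimum count 10), which left 13686 of 37620. Libraries were scaled by TMM, and the 8 libraries of classes 1 to 4 were fitted together (4 residual degrees of freedom) so that their spread is shared. Class 4 was tested against class 3 with the quasi-likelihood test and Benjamini-Hochberg adjustment over all genes tested. Errors given after ± are standard errors of the log2 fold change, taken as its size over the square root of the F statistic. A group at 0 was set at 3 counts over its 2 libraries for lower bounds of folds. Intervals of counting error were not used, since every library was deep; totals open the report. The test was checked on simulated counts with the same spread in all genes and classes. There the sizes of the changes set in were recovered, no unchanged gene was called and most of the changed genes did not pass. In the data the class 4 replicates were less alike than those of class 3. The check therefore cannot show how many false calls the test makes under such unequal spread.

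The comparison and the gene lists were chosen with earlier results of these data known. Named are a set of monocyte and progenitor genes, the 15 genes with the largest changes in each direction (averaging 3 or more in log2 CPM, with the groups apart, and 147 genes known by a clone or model number passed over), and per list some members with small p and the member with the highest CPM among those not called. Some further members were chosen after their values were seen. Alternatives were DESeq2 1.42.0 size factors, upper-quartile factors, the DESeq2 Wald test, other filters, other sets of libraries in the fit, a replicate block and leaving out each library. Promoters came from RefSeq's table for GRCm38.p6, matched by symbol. No coordinates of mm9 were used. A few genes are not reported here.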

Additional observations from a re-analysis of the deposited data

How the results depend on the processing

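The number of genes past the threshold between class 4 and class 3 stayed within 1.5 times of 3917 with DESeq2 size factors (3888), upper-quartile factors (3879), the DESeq2 Wald test (4803), no filter (4867), a minimum count of 50 (3937) and only the 4 libraries (2967). With all 14 primary libraries it was 1993, of which 782 were higher and 1211 lower in class 4. With 1 library left out it ranged from 1798 to 4704 in all, from 717 to 2050 for higher and from 1081 to 2654 for lower genes; the lone sample was then assumed to vary like the other groups. The cause of these shifts was not tested. The labels do not say that replicate numbers pair libraries, and the replicate differences of 2 classes correlated over genes at -0.0106 to 0.0728. With the replicate block Fos (adjusted p = 0.00969) and Jun (adjusted p = 0.0174) passed. The block gave 3712 calls for class 4 against class 3, 5345 for class 4 and 2952 for class 3 against classes 1 and 2.

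Of 186 genes named, 138 kept direction and side of the threshold under every alternative, 27 lost a call under at least 1, 10 only gained one (Camp, Fos, Jun, Kit, Ltf, Mcpt8, Mpo, Myb, Prss34 and Ttk) and 11 changed sign under at least 1. None of those 11 had passed. Their log2 fold changes were as follows. Cd14 had -0.11 to 0.22 with 1 library left out. Cd34 had -0.22 to 0.47 with 1 library left out. Chi3l3 had -0.011 to 0.46 with 1 library left out. Fcer1g had -0.14 to 0.025 with 1 library left out and 0.031 with upper-quartile factors. Fcgr1 had -0.13 to 0.80 with 1 library left out. Hp had -0.10 to 0.088 with 1 library left out, 0.0082 with DESeq2 size factors, 0.079 with upper-quartile factors, 0.0082 with the DESeq2 Wald test, 0.038 at a minimum count of 50 and 0.011 with the replicate block. Hspa5 had -0.082 to 0.20 with 1 library left out. Mcm6 had -0.27 to 0.019 with 1 library left out. Prtn3 had -0.053 to 0.18 with 1 library left out. Sfpi1 had -0.031 to 0.054 with 1 library left out and -0.042 with all 14 libraries. Xbp1 had -0.24 to 0.0039 with 1 library left out. Of 244 genes tested with no count in class 3, 112 were called higher in class 4, and of 407 with none in class 4, 155 were called lower.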
